A study of Mus musculus with 12 samples.

Results

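The response to loss of HDAC3 was compared between lymphoid-primed multipotent progenitors (LMPPs) and CD115-negative common DC progenitors (CD115-CDPs). The comparison used 8 of the 12 RNA-seq libraries of the series, 2 for each genotype in each progenitor. The remaining 4 libraries were from bone marrow (BM) pDCs and served as samples that had no part in choosing genes. All mice were C57BL/6 and all received intraperitoneal tamoxifen for 5 days, with cells sorted 7 days later. Control mice carried 2 floxed Hdac3 alleles (Hdac3 fl/fl) and no Cre. HDAC3-deficient mice carried the same alleles with CreERT2 expressed from the Rosa26 locus, so that deletion was not limited to the blood lineages. Tamoxifen was given to both genotypes, and CreERT2 itself was present only in the HDAC3-deficient mice. The labels give no ages. Nothing says that the 2 libraries of a group came from separate mice, so p values measure only the spread between these libraries, which may be technical.

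A gene entered the comparison if it reached 1 FPKM (fragments per kilobase, scaled to the mapped fragments of the library) in 2 or more libraries of both progenitors, which 9944 of the 14099 genes in both tables did. The response of a gene was the mean log2(FPKM + 0.5) of the HDAC3-deficient libraries minus that of the controls, so that 1 is a doubling for a gene well above 0.5 FPKM. Genes were sorted into 4 patterns by position alone, with both HDAC3-deficient libraries above or below both controls in each progenitor. A total of 640 genes were higher in both progenitors, 1781 were lower in both, 157 were higher in LMPPs and lower in CD115-CDPs, and 405 were lower in LMPPs and higher in CD115-CDPs. These values chose the genes, so they are given as a description. Membership was close for some genes. The member nearest the edge was Tubb6 among those higher in both and Wdr45b among those lower in both, at gaps between genotypes of 0.0011 and 0.0004 on the log2 scale. Spint1 and Bcl2l1, at gaps of 0, lay just outside. For the opposite patterns, Mrpl14 and Poli lay just inside, at gaps of 0.0015 and 0.0011, and Amdhd2 and Abcf3 just outside, at −0.0003 and 0. The words rose and fell are kept for genes that passed a test at an adjusted p under 0.05.

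HDAC3 removes acetyl groups from histones within corepressor complexes built on NCoR or SMRT, and its loss is commonly followed by higher acetylation at genes that the complex holds down. LMPPs are early progenitors with lymphoid and myeloid potential and little megakaryocyte or erythroid output. CDPs stand closer to the dendritic lineages, and those without surface CD115 (the receptor encoded by Csf1r) give rise mainly to pDCs.

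The labels were checked against the sort markers and Hdac3. Flt3 was abundant in both progenitors, at 312 to 473 FPKM in LMPPs and 217 to 352 FPKM in CD115-CDPs over 4 libraries each. Csf1r was not absent from control CD115-CDPs, at 139 and 95.3 FPKM, against 14.9 and 25.6 FPKM in control LMPPs, although the sort was for cells without the surface protein. Sort markers also differed by genotype. In LMPPs Kit was at 122 and 138 FPKM in controls against 87.3 and 67.5 FPKM without HDAC3. Flt3 was at 402 and 473 FPKM in control LMPPs against 314 and 312 FPKM without HDAC3. Cd34 was at 797 and 807 FPKM in control LMPPs against 577 and 523 FPKM, while Ly6a overlapped in LMPPs. In HDAC3-deficient CD115-CDPs Csf1r was at 64.7 and 21.5 FPKM. Il7r in CD115-CDPs was at 14.9 and 10.5 FPKM in controls against 1.64 and 2.75 FPKM. Ly6a in CD115-CDPs was at 36.2 and 33.4 FPKM in controls against 127 and 79.6 FPKM. Kit and Flt3 overlapped between genotypes in CD115-CDPs. Whether each gate held the same cells in both genotypes was not tested. Hdac3 was at 56.5 and 66.3 FPKM in control LMPPs and at 16.9 and 9.87 FPKM in HDAC3-deficient LMPPs. In CD115-CDPs it was at 58.2 and 39.6 FPKM in controls and at 12.1 and 0.93 FPKM in HDAC3-deficient cells. RNA that lacks the deleted exon can still be counted. HDAC3-deficient CD115-CDP library 2 stood apart, in which 11288 genes were above 0, compared with 13684 to 15173 genes in each of the remaining 7. The median gene differed by 0.67 on the log2 scale between the 2 HDAC3-deficient CD115-CDP libraries, and by 0.18 to 0.24 between the libraries of the other groups. Control LMPP library 1 carried hemoglobin RNA, with erythroid genes at a summed 9681 FPKM, while the remaining LMPP libraries had 351 to 597 FPKM. The 2 progenitors were in separate tables with no read totals, so depth is unknown, and FPKM levels set across them are side by side only.

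On the deposited scale, but not under median-ratio scaling or quantile normalization, far more genes were lower than higher in both progenitors. In LMPPs 18.1% of the 9944 genes had both HDAC3-deficient libraries above both controls and 47.4% had both below. In CD115-CDPs the shares were 15.6% and 27.5%. Genes higher in both made up 6.44% of all genes, those lower in both 17.9%, and the opposite patterns 1.58% (higher in LMPPs) and 4.07% (lower in LMPPs). Of the genes above in LMPPs, 35.6% were also above in CD115-CDPs and 8.72% were below. Of the genes below in LMPPs, 37.8% were also below in CD115-CDPs and 8.59% were above. Taken from the CD115-CDP side, 41.3% of the genes above and 65% of the genes below did the same in LMPPs. Across the 9944 genes the responses correlated at Pearson r = 0.36 and Spearman rho = 0.35, and r was 0.39 without HDAC3-deficient CD115-CDP library 2. Genes are not independent replicates, and no p is given.

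The excess of lower genes depended on scale. The median response of all 9944 genes was −0.22 in LMPPs and −0.15 in CD115-CDPs on the deposited FPKM. It was −0.02 and −0.04 after median-ratio scaling, and 0.03 and 0.00 after quantile normalization. With those scalings the genes higher in both numbered 1132 and 1110, and the genes lower in both 1131 and 978. All 640 genes higher in both kept that pattern under median-ratio scaling and 586 kept it under quantile normalization, whereas 1131 and 920 of the 1781 genes lower in both kept theirs. Of the opposite patterns, 113 and 105 of 157 and 270 and 212 of 405 genes kept theirs. Without HDAC3-deficient CD115-CDP library 2, which loosens the rule to 1 library, the 4 patterns held 1193, 2741, 306 and 1068 genes. Without library 1 they held 920, 2854, 678 and 1371 genes. The count of 157 was also above 1.5 times its size without either LMPP control library (264 and 276), either HDAC3-deficient LMPP library (369 and 306) or control CD115-CDP library 1 (252), and that of 405 without either control CD115-CDP library (684 and 619).

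**Figure D1:**
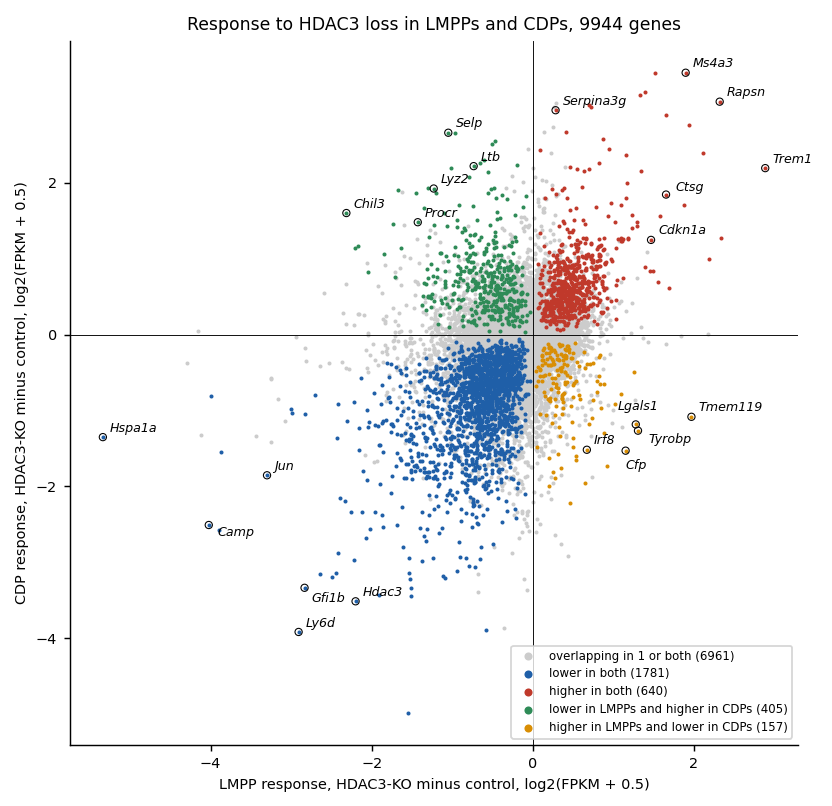
Response of 9944 genes in LMPPs (x axis) and CD115-CDPs (y axis), each as log2(FPKM + 0.5) in HDAC3-deficient minus control libraries, with 2 libraries per group. Colors mark the 4 patterns and grey the genes whose genotypes overlapped in 1 or both progenitors, with 640 genes in the upper right and 1781 in the lower left.

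Tested one progenitor at a time over all libraries, calls came from LMPPs. By limma, 480 genes rose (4.31%) and 2096 fell (18.8%) among the 11146 measured in LMPPs. The number of LMPP calls was 1591 and 1167 without control library 1 or 2, and 3932 without HDAC3-deficient library 1. Falls made up 81.4% of the LMPP calls on the deposited scale, 59.2% after median-ratio scaling and 54.8% after quantile normalization. Of 10832 genes tested in CD115-CDPs, 0 were called (0%), with 332 higher and 644 lower at an unadjusted p under 0.05. The smallest adjusted p in CD115-CDPs was 0.11. Without HDAC3-deficient library 1, 5111 genes were called in CD115-CDPs, and without library 2, 1395 genes, so the count of 0 depended on the spread between these libraries. Among the genes higher in both, 237 of 640 rose in LMPPs, and among those lower in both, 767 of 1781 fell. Only 22 of the 157 genes higher in LMPPs and lower in CD115-CDPs rose in LMPPs, while 142 of the 405 genes with the reverse pattern fell there. Position against the controls chose all of these genes, so nothing is read from these shares.

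The genes that lay highest in both progenitors included several of myeloid cells and their granules. The first in order was Rapsn. Rapsn, which encodes the acetylcholine receptor clustering protein rapsyn, was at 3.77 and 1.94 FPKM in control LMPPs and at 14.7 and 16.6 FPKM without HDAC3. In CD115-CDPs, Rapsn was at 0.18 and 0.21 FPKM in controls and at 7.18 and 3.93 FPKM without HDAC3. Its response was 2.32 in LMPPs (SE 0.28; adjusted p = 8.8e-05) and 3.07 in CD115-CDPs (SE 0.60; adjusted p = 0.31). Genes were ordered by the smaller of their responses, and Rapsn was near 0 in the control CD115-CDPs.

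Ms4a3 (chromosome 19, 11629499 to 11640851), a gene of granulocyte and monocyte progenitors, was at 23.4 and 20.2 FPKM in control LMPPs and at 64.5 and 105 FPKM in HDAC3-deficient LMPPs. In CD115-CDPs it was at 3.71 and 7.67 FPKM in controls and at 109 and 37.2 FPKM without HDAC3. Its response was 1.90 in LMPPs (SE 0.21; adjusted p = 5.1e-05) and 3.45 in CD115-CDPs (SE 0.62; adjusted p = 0.26), and 4.22 without HDAC3-deficient CD115-CDP library 2. The control progenitors did not overlap each other in Ms4a3, and the HDAC3-deficient ones did. Ctsg, which encodes the neutrophil protease cathepsin G, was at 369 and 481 FPKM in control LMPPs against 1208 and 1453 FPKM without HDAC3. In CD115-CDPs Ctsg was at 207 and 201 FPKM against 829 and 652 FPKM, so that the responses were 1.65 and 1.85 with a difference of −0.19 (SE 0.32). Mpo, the gene of myeloperoxidase, was at 1144 and 1395 FPKM in control LMPPs and at 2516 and 2722 FPKM without HDAC3. In CD115-CDPs Mpo was at 567 and 742 FPKM against 1712 and 1413 FPKM. Ms4a3, Ctsg and Mpo rose in LMPPs, and in CD115-CDPs none passed.

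The other leading genes of this pattern had varied roles. Trem1 and Trem3, which encode activating receptors of myeloid cells, had responses of 2.88 and 1.65 in LMPPs and 2.19 and 2.89 in CD115-CDPs. Clec2i, a lectin gene, was at 1.74 and 3.94 FPKM in control LMPPs against 16.8 and 10.3 FPKM, and at 6.77 and 9.69 FPKM in control CD115-CDPs against 42.1 and 47.4 FPKM. Gimap7 and Gimap4, GTPase genes of lymphocytes, had responses of 1.88 and 1.51 in LMPPs and 1.71 and 3.45 in CD115-CDPs. Slc2a6, a sugar transporter gene, responded by 1.58 in LMPPs and 1.57 in CD115-CDPs. Apoc1, an apolipoprotein gene, was at 0.49 and 0 FPKM in control LMPPs and 0.44 and 0 FPKM in control CD115-CDPs, so its fold is not well set. Each of these genes rose in LMPPs, with adjusted p from 1.5e-05 for Trem1 to 0.011 for Gimap4. Cdkn1a, whose product halts the cell cycle by inhibiting CDKs, was at 29.2 and 34 FPKM in control LMPPs against 93.1 and 83 FPKM, and at 66.6 and 58.8 FPKM in control CD115-CDPs against 157 and 142 FPKM.

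Genes lower in both progenitors were led by Ly6d (chromosome 15, 74762056 to 74763567), which marks lymphoid-primed progenitors and pDCs. Ly6d was at 5.9 and 4.11 FPKM in control LMPPs and at 0.27 and 0.18 FPKM in HDAC3-deficient LMPPs. In CD115-CDPs it was at 577 and 460.1 FPKM in controls and at 31.3 and 36 FPKM without HDAC3. The response was −2.91 in LMPPs (SE 0.32; adjusted p = 4.4e-05) and −3.92 in CD115-CDPs (SE 0.26; adjusted p = 0.11). In LMPPs the low level pulls the log2 response of Ly6d toward 0, since 0.5 FPKM was added to each value. The difference of the Ly6d responses was 1.01 (SE 0.38; adjusted p = 0.56).

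Cnn3, which encodes an actin-binding calponin, and Lgals3, which encodes galectin 3, shared the pattern of Ly6d. Cnn3 was at 25 and 34.3 FPKM in control LMPPs against 4.3 and 5.36 FPKM, and at 351 and 281 FPKM in control CD115-CDPs against 34.2 and 33.5 FPKM. Lgals3 was at 6.24 and 7.63 FPKM in control LMPPs against 1.78 and 0.6 FPKM, and at 149.6 and 113 FPKM in control CD115-CDPs against 18.6 and 13.9 FPKM. Plbd1, a phospholipase-like gene, had responses of −2.64 and −3.16, and Ptms, the parathymosin gene, of −2.41 and −2.88. In these 4 genes the HDAC3-deficient CD115-CDP libraries lay close to each other.

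In other genes lower in both, the size in CD115-CDPs depended on 1 library. Gfi1b, a repressor gene of erythroid and megakaryocyte development, was at 27.4 and 33.4 FPKM in control LMPPs against 2.94 and 4.9 FPKM. In CD115-CDPs Gfi1b was at 22.1 and 14.2 FPKM in controls, and at 6 FPKM and listed at 0 in the HDAC3-deficient libraries. Its CD115-CDP response was −3.34 with both libraries and −1.49 without library 2. Tspan17, a tetraspanin gene, and Sgk1, a kinase gene, were also listed at 0 in that library. Their CD115-CDP responses were −3.14 and −2.34 with it, and −2.13 and −1.66 without it. Lag3, an inhibitory receptor gene of T cells and pDCs, went from −2.20 to −0.46. Jun, a subunit gene of AP-1, was at 598 and 686 FPKM in control LMPPs against 80.0 and 52.1 FPKM. In CD115-CDPs Jun was at 96.6 and 70.9 FPKM against 59.8 and 8.28 FPKM, a response of −1.86 with both libraries and −0.47 without library 2.

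Camp and Retnlg, genes of mature neutrophils, were also lower in both. Camp was at 65.9 and 38.8 FPKM in control LMPPs against 4.01 and 1.69 FPKM, and at 56.9 and 35.4 FPKM in control CD115-CDPs against 15 and 3.6 FPKM. Retnlg was at 15.1 and 15.3 FPKM in control LMPPs against 1.7 FPKM and 0. Without HDAC3-deficient library 2 the CD115-CDP responses went from −2.51 to −1.55 for Camp and from −2.57 to −1.27 for Retnlg. The 16 late granule and neutrophil genes of the marker list were above 0 in every control library of both progenitors, and 10 to 15 of them were above 0 in the HDAC3-deficient ones. They summed to 886 and 675 FPKM in control LMPPs against 246 and 192 FPKM, and to 713 and 340 FPKM in control CD115-CDPs against 406 and 237 FPKM. Whether neutrophil RNA had a part in these values was not tested. In bulk samples, fewer cells of a type and less RNA per cell cannot be told apart.

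**Figure D2:**
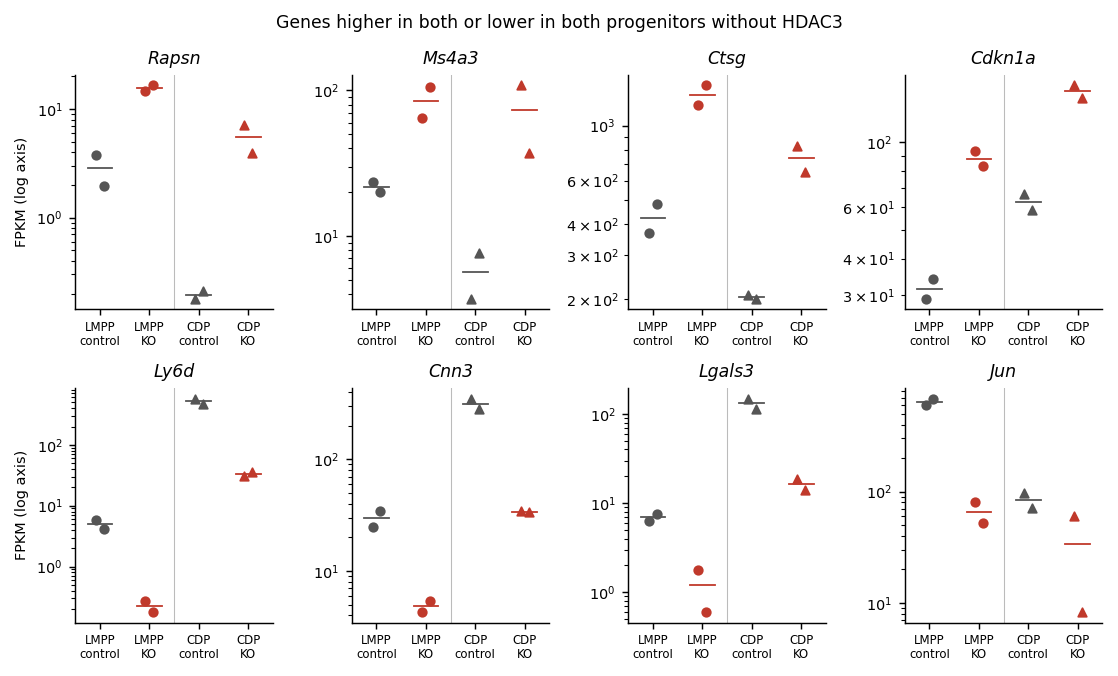
FPKM on a log axis of 4 genes higher in both progenitors without HDAC3 (top) and 4 lower in both (bottom), with 1 point per library, bars at the mean of 2, circles for LMPPs and triangles for CD115-CDPs. Ly6d lies at 4.11 and 5.9 FPKM in control LMPPs and at 460.1 and 577 FPKM in control CD115-CDPs, and lower without HDAC3 in both.

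The 157 genes higher in LMPPs and lower in CD115-CDPs included Irf8 (chromosome 8, 120736358 to 120756694), a transcription factor gene of dendritic cell and monocyte progenitors. Irf8 was at 81.5 and 109 FPKM in control LMPPs and at 165 and 136 FPKM in HDAC3-deficient LMPPs. In CD115-CDPs it was at 1696 and 1331 FPKM in controls and at 864 and 318 FPKM without HDAC3. The response was 0.67 in LMPPs (SE 0.18; adjusted p = 0.017) and −1.52 in CD115-CDPs (SE 0.51; adjusted p = 0.51). The CD115-CDP response was −0.80 without HDAC3-deficient library 2. The difference of the Irf8 responses was 2.19 (SE 0.60; adjusted p = 0.37). The genotypes thus did not overlap in either progenitor, and the difference between progenitors did not pass the test.

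Tyrobp, which encodes the signaling adaptor DAP12, was at 159 and 168 FPKM in control LMPPs against 390.5 and 420.1 FPKM. In CD115-CDPs Tyrobp was at 1349 and 743 FPKM in controls against 699.8 and 247 FPKM, where the control library 2 and HDAC3-deficient library 1 were close. Lgals1, the galectin 1 gene, was at 232 and 294 FPKM in control LMPPs against 566 and 708 FPKM, and at 2149 and 1688 FPKM in control CD115-CDPs against 988 and 710.2 FPKM. Tmem119, a transmembrane protein gene, was at 2.34 and 3.22 FPKM in control LMPPs against 13.7 and 10.9 FPKM, and at 99.2 and 101 FPKM in control CD115-CDPs against 58 and 38 FPKM. Cfp, the gene of the complement protein properdin, was at 80.1 and 54.9 FPKM in control LMPPs against 134 and 164 FPKM, and at 425 and 337 FPKM in control CD115-CDPs against 204 and 83.8 FPKM. Tyrobp, Lgals1, Tmem119 and Cfp rose in LMPPs, and for each the HDAC3-deficient progenitors were closer together than the control progenitors on these scales.

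The integrin genes Itgax (CD11c), which marks dendritic cells and their precursors, and Itgb7 shared the pattern. Itgax was at 0.36 and 0.6 FPKM in control LMPPs against 1.49 and 1.12 FPKM, and at 22.3 and 14.1 FPKM in control CD115-CDPs against 8.1 and 5.87 FPKM. Itgb7 was at 60.8 and 62.3 FPKM in control LMPPs against 121 and 102 FPKM, and at 393 and 316 FPKM in control CD115-CDPs against 279.6 and 115 FPKM. The respiratory chain gene Cox6a2, which is high in pDCs, was at 6.07 and 4.13 FPKM in control LMPPs against 6.62 and 8.43 FPKM. In CD115-CDPs Cox6a2 was at 136 and 117 FPKM in controls against 44.6 and 38.1 FPKM. Of these 3 genes only Itgb7 rose in LMPPs (response 0.85; adjusted p = 0.0026). Atp4a, a proton pump subunit gene, and H2ac11, a histone gene with close copies, completed the 8 leading genes, at differences of 2.66 and 1.94. Tfrc, the transferrin receptor gene, rose in LMPPs by 1.25 and was at −0.49 in CD115-CDPs, a pattern it did not keep under median-ratio scaling or quantile normalization.

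The 405 genes lower in LMPPs and higher in CD115-CDPs included Lyz2 (chromosome 10, 117277541 to 117282272), the lysozyme gene of myeloid cells. Lyz2 was at 541 and 504 FPKM in control LMPPs and at 236 and 209 FPKM in HDAC3-deficient LMPPs. In CD115-CDPs it was at 191 and 81.6 FPKM in controls and at 507 and 446 FPKM without HDAC3. The response was −1.23 in LMPPs (SE 0.18; adjusted p = 0.00033) and 1.92 in CD115-CDPs (SE 0.44; adjusted p = 0.38). The difference was −3.16 (SE 0.50; adjusted p = 0.11). The neighbouring gene Lyz1 had responses of −1.02 and 2.19, but Lyz1 and Lyz2 are close copies and the counting may have shared reads between them.

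Of the fixed lists, 4 of 18 stem and multipotent progenitor genes stood in this pattern, beside 4.07% of all 9944 genes. Only 2 megakaryocyte and platelet genes were measured in both progenitors, and 1 of them, Selp, stood in it. Procr, which encodes the endothelial protein C receptor and marks stem cells, was at 19.4 and 20.9 FPKM in control LMPPs against 6.6 and 7.74 FPKM. In CD115-CDPs Procr was at 0.34 and 0.8 FPKM in controls against 2.2 and 2.65 FPKM. Lmo2, which encodes a bridging subunit of the SCL complex, was at 183 and 179 FPKM in control LMPPs against 83.8 and 78.5 FPKM, and at 41.2 and 20.9 FPKM in control CD115-CDPs against 75.5 and 51.7 FPKM. Selp, the P-selectin gene, was at 9.56 and 11.5 FPKM in control LMPPs against 5.3 and 4.34 FPKM, and at 0.24 and 0.66 FPKM in control CD115-CDPs against 5.77 and 4.97 FPKM. Ptgs1, the gene of cyclooxygenase 1, was at 27.3 and 21.4 FPKM in control LMPPs against 8.81 and 8.32 FPKM, and at 1.3 and 0.51 FPKM in control CD115-CDPs against 5.96 and 3.24 FPKM. Car2, a carbonic anhydrase gene, had responses of −1.10 and 1.60, and Angpt1, the angiopoietin 1 gene, of −1.26 and 0.93. Procr, Lmo2, Selp, Ptgs1, Car2 and Angpt1 fell in LMPPs. Markers of other cells moved with the falls in LMPPs. The 13 megakaryocyte and platelet genes of the LMPP table summed to 117 and 133 FPKM in controls and to 31.7 and 27.1 FPKM without HDAC3, and 9 mast cell and basophil genes to 189.6 and 142 FPKM against 58.1 and 43.4 FPKM. The part of such cells in the falls was not tested. In CD115-CDPs the 11 megakaryocyte and platelet genes of that table summed to 7.33 and 6.12 FPKM in controls and to 17.6 and 5.21 FPKM without HDAC3.

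The other leading genes had varied roles. Serpinb6b, a protease inhibitor gene, was at 6.17 and 8.67 FPKM in control LMPPs against 2.3 and 1.63 FPKM, and at 0.43 and 0.05 FPKM in control CD115-CDPs against 1.19 and 3.72 FPKM. Serpine2 had responses of −1.74 and 1.46. Gclm, a subunit gene of the enzyme that begins glutathione synthesis, was at 26.7 and 27.2 FPKM in control LMPPs against 12.4 and 9.26 FPKM. In CD115-CDPs Gclm was at 4.61 and 4.43 FPKM in controls against 11.3 and 12.2 FPKM. Pafah2, a phospholipase gene, had responses of −1.35 and 1.67, and Fut10, a fucosyltransferase family gene, of −1.30 and 1.94. Chil3, a chitinase-like gene of neutrophils and macrophages, had responses of −2.32 and 1.60. All of these genes fell in LMPPs, with adjusted p from 0.00034 for Pafah2 to 0.005 for Fut10, and none passed in CD115-CDPs.

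By levels, the 157 genes higher in LMPPs and lower in CD115-CDPs had a median of 37.5 FPKM in control LMPPs, 46.3 FPKM in HDAC3-deficient LMPPs, 54.5 FPKM in control CD115-CDPs and 39.7 FPKM in HDAC3-deficient CD115-CDPs. For the 405 genes of the reverse pattern the medians were 13.7, 8.68, 6.83 and 11.2 FPKM in the same order. In both patterns the medians of the HDAC3-deficient progenitors lay closer together than those of the control progenitors. The control libraries enter both the levels and the responses, so this closeness is no separate result. Genes higher in both had medians of 49 and 66.2 FPKM in LMPPs and 39.3 and 62.5 FPKM in CD115-CDPs, and genes lower in both of 14.2 and 8.41 FPKM and 16.3 and 9.41 FPKM.

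**Figure D3:**
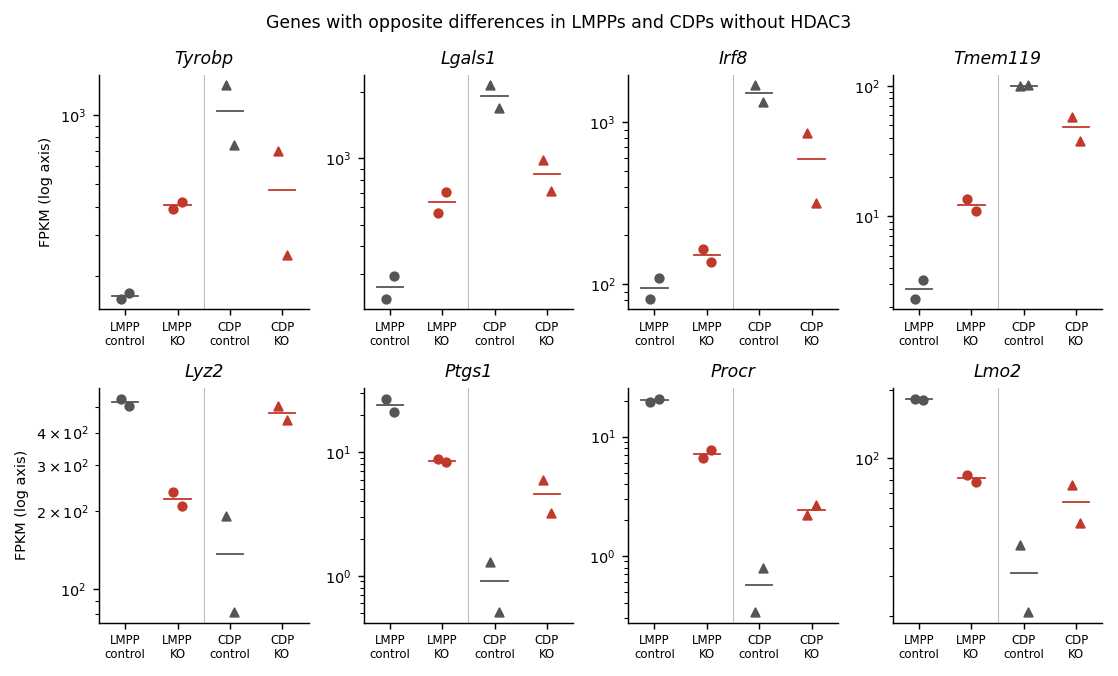
FPKM on a log axis of 4 genes higher in LMPPs and lower in CD115-CDPs without HDAC3 (top) and 4 with the reverse pattern (bottom), with 1 point per library, bars at the mean of 2, circles for LMPPs and triangles for CD115-CDPs. In each panel both HDAC3-deficient libraries lie beyond both controls, upward in one progenitor and downward in the other.

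The difference between the 2 responses was tested gene by gene in 1 limma fit over the 8 libraries. Of 9944 genes, 0 were called (0%), and the smallest adjusted p was 0.08. No count tool could be run on FPKM. Before adjustment, 773 genes (7.77%) had a p under 0.05, 221 with the higher response in LMPPs and 552 with the higher response in CD115-CDPs. The opposite movement of the genes above is therefore a description of 8 libraries that did not pass a test of the difference. Without HDAC3-deficient CD115-CDP library 2, 449 genes were called, and without library 1, 3555 genes, the lone library being assumed to vary like those of the other groups. Leaving out 1 of the 2 libraries removes the spread between them from the test.

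The genes with the smallest p for a higher response in CD115-CDPs were Serpina3g, Hspa1b, Tsc22d3, Ltb and Gstm1. Serpina3g, a protease inhibitor gene from a cluster of close copies, was at 167 and 129 FPKM in control LMPPs against 190.3 and 168 FPKM. In CD115-CDPs Serpina3g was at 16.2 and 17.2 FPKM in controls against 125 and 141 FPKM, and its difference was −2.68 (SE 0.29; adjusted p = 0.08 by limma). Tsc22d3, the glucocorticoid-induced gene GILZ, was at 122 and 122 FPKM in control LMPPs against 107 and 68.7 FPKM, and at 27.7 and 22.7 FPKM in control CD115-CDPs against 151 and 139 FPKM. Ltb, the lymphotoxin beta gene, was at 102 and 81.5 FPKM in control LMPPs against 65.6 and 45.2 FPKM, and at 9.35 and 7.74 FPKM in control CD115-CDPs against 41.9 and 41.1 FPKM. Gstm1, a glutathione transferase gene, had responses of −0.46 and 1.80. Hspa1b, an inducible chaperone gene nearly identical to Hspa1a, had responses of −4.15 and 0.05. In Serpina3g, Tsc22d3, Ltb and Gstm1 the HDAC3-deficient CD115-CDP libraries lay nearer to the LMPP values than their controls did, on these separate scales.

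In the other direction the smallest p belonged to Tmem119, Lgals1, Zfp511, Bin1 and Cox6a2. Zfp511, a zinc finger gene, was at 19.9 and 23.1 FPKM in control LMPPs against 18.5 and 21.2 FPKM. In CD115-CDPs Zfp511 was at 3.25 and 5.29 FPKM in controls and listed at 0 in both HDAC3-deficient libraries. Bin1, a membrane-bending adaptor gene, was at 50.4 and 53.5 FPKM in control LMPPs against 50.2 and 41.3 FPKM, and at 162 and 153 FPKM in control CD115-CDPs against 43.6 and 36.9 FPKM. The differences ran from 1.77 for Bin1 to 3.11 for Zfp511, with adjusted p of 0.082 for Tmem119 and 0.11 to 0.15 for the other 4.

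Gene lists were described by their counts and medians beside the values of all 9944 genes. For all genes the median response was −0.22 in LMPPs and −0.15 in CD115-CDPs, and 429 rose and 1733 fell in LMPPs. Higher in both were 6.44% of the 9944 genes and lower in both 17.9%. The opposite patterns held 1.58% (higher in LMPPs) and 4.07% (lower in LMPPs). Lists with positive medians in both progenitors included those of ribosome biogenesis, primary granules, ribosomal proteins and heat shock genes. Of 22 ribosome biogenesis genes, 14 were higher in both progenitors and 0 lower in both, with medians of 0.54 in LMPPs and 0.90 in CD115-CDPs. In LMPPs 11 of the 22 rose, 0 fell and 11 had no call. Nolc1, a nucleolar chaperone gene, had responses of 1.10 and 1.23, Npm1, the nucleophosmin gene, of 0.87 and 1.12, and Polr1b, an RNA polymerase I subunit gene, of 0.82 and 1.26. Of 35 ribosomal protein genes, 9 were higher in both, with medians of 0.39 and 0.21, and of 0.12 and 0.18 after quantile normalization. Of 16 primary granule genes, 5 were higher in both and 2 were lower in LMPPs and higher in CD115-CDPs, with medians of 0.33 and 0.78, and 6 rose and 3 fell in LMPPs. Nkg7, a cytotoxic granule gene in this list and in that of T and NK cells, had responses of 0.87 and 2.58. Of 13 heat shock genes, 7 were higher in both, among them Hspd1 (0.88 and 1.27), and 2 were lower in both, Hspa1a (−5.34 and −1.35) and Dnajb1 (−1.80 and −0.83).

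Lists with negative medians in both progenitors included those of pDCs, MHC class II and interferon-stimulated genes. Among all 9944 genes, 17.9% were lower in both, 6.44% were higher in both, and 429 rose and 1733 fell in LMPPs. Of 22 pDC genes, 11 were lower in both, 0 were higher in both, and Irf8 and Cox6a2 were higher in LMPPs and lower in CD115-CDPs. Their medians were −0.66 in LMPPs and −1.47 in CD115-CDPs (−0.98 without library 2), and 12 fell and 2 rose in LMPPs. Siglech, a pDC surface lectin gene that was named after its values were seen, was at 3.94 and 1.6 FPKM in control LMPPs against 0.34 and 0.13 FPKM, and at 178 and 93.3 FPKM in control CD115-CDPs against 25.8 and 14.9 FPKM. Blnk, a B-cell receptor adaptor gene, had responses of −2.13 and −2.34. Of 9 MHC class II genes, 6 were lower in both, with medians of −0.81 and −1.29. H2-Eb1 and H2-Aa had responses of −1.74 and −1.62 in LMPPs and of −1.86 and −2.27 in CD115-CDPs. Cd74, which encodes the invariant chain, had responses of −1.53 and −1.22. Of 24 interferon-stimulated genes, 14 were lower in both and 0 higher in both, with medians of −1.03 and −0.86, and 19 fell in LMPPs. Ifi44 had responses of −1.76 and −1.28, and Irf7, which amplifies interferon production, of −1.21 and −1.37. These 3 lists kept negative medians in both progenitors after quantile normalization, from −0.65 to −1.32.

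Other lists had medians farther from 0 in LMPPs than in CD115-CDPs. Among all 9944 genes, 429 rose and 1733 fell in LMPPs, 17.9% were lower in both and 6.44% were higher in both. Opposite patterns held 1.58% (higher in LMPPs) and 4.07% (lower in LMPPs) of all genes. Of 18 stem and multipotent progenitor genes, 12 fell in LMPPs with a median of −1.23, while the CD115-CDP median was 0.06. Only 2 of them were lower in both, and 4 were lower in LMPPs and higher in CD115-CDPs, among them Procr and Angpt1. Cd34, a member of this pattern named after its values were seen, had responses of only −0.55 and 0.05. Of 13 late granule and neutrophil genes, 12 fell in LMPPs (median −2.53), and 4 were lower in both (CD115-CDP median −0.81, and −0.44 without HDAC3-deficient library 2). Of 24 immediate early genes, 17 fell in LMPPs (median −1.13) and 7 were lower in both. Their CD115-CDP median was −0.43, and 0.09 without HDAC3-deficient library 2. Egr1, a gene switched on within minutes of stimulation, had responses of −3.87 and −1.55. Of 32 DNA replication genes, 10 rose in LMPPs (median 0.33), and the CD115-CDP median was −0.15. Of these, 4 were higher in both and 3 were higher in LMPPs and lower in CD115-CDPs, among them Gins2 (0.55 and −0.36) and Pcna (0.27 and −0.39). Of 27 oxidative phosphorylation genes, 3 rose in LMPPs and 3 were higher in both, with medians of 0.32 and −0.10, and of 0.10 and −0.15 after quantile normalization. No gene of any list was called for the difference of responses, and the list medians were not tested against each other.

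**Figure D4:**
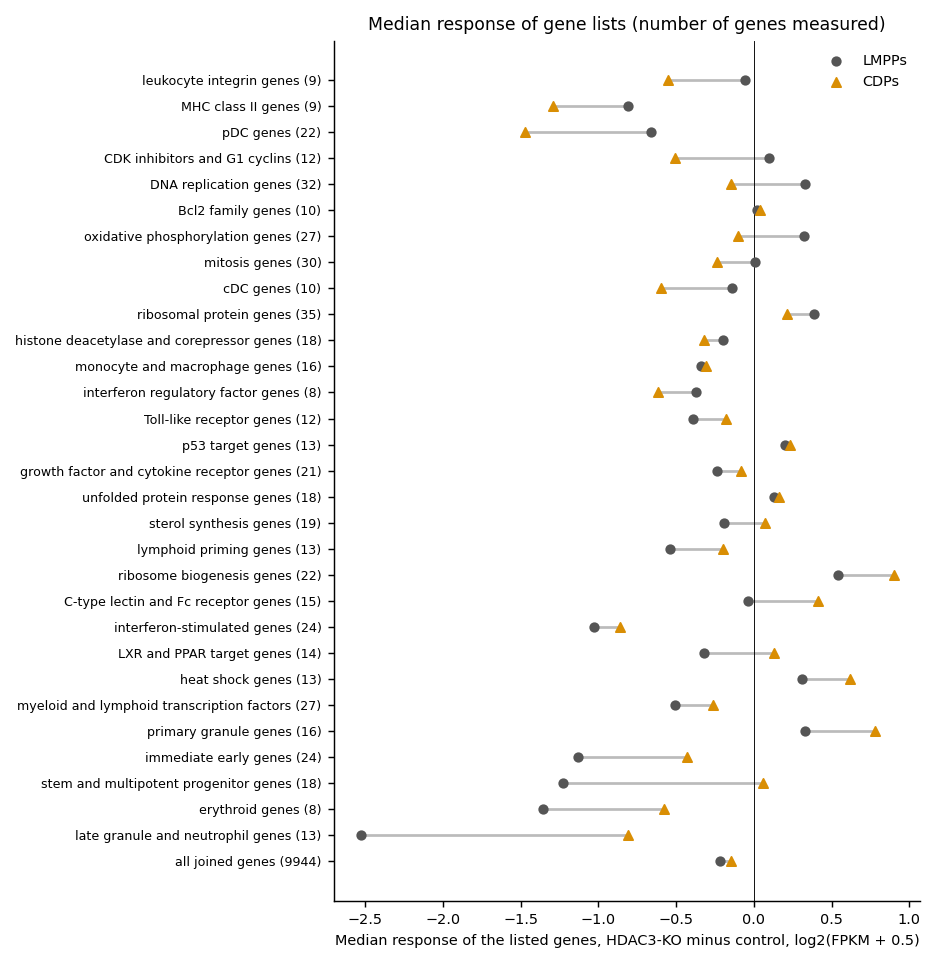
Median response of the genes of each list with 8 or more measured members, in LMPPs (circles) and CD115-CDPs (triangles), as log2(FPKM + 0.5) without HDAC3 minus control and ordered by the median difference. The lists of pDC genes (−0.66 and −1.47) and interferon-stimulated genes (−1.03 and −0.86) lie left of 0 in both, and ribosome biogenesis genes (0.54 and 0.90) right of 0.

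The remaining lists are given by their counts, to be read beside 6.44% of all genes higher in both, 17.9% lower in both, 1.58% higher in LMPPs and lower in CD115-CDPs, and 4.07% of the reverse pattern. Among lists of other cell types, 1 of 3 B-cell genes was lower in both (Blnk) and 1 of 3 T-cell and NK-cell genes was higher in both (Nkg7). In the list of 4 mast cell and basophil genes, 1 was lower in both (Cpa3) and 1 was lower in LMPPs and higher in CD115-CDPs (Mcpt8). Of 8 erythroid genes, 0 were higher or lower in both, and Car2 and Tfrc had opposite patterns. Monocyte and macrophage genes numbered 2 higher in both and 2 lower in both of 16. In that list 3 genes, among them Lyz2, were lower in LMPPs and higher in CD115-CDPs, and 1 had the reverse pattern. Lymphoid priming and conventional dendritic cell genes were lower in both at 5 of 13 and 1 of 10. Itgax, of the dendritic cell list, was higher in LMPPs and lower in CD115-CDPs. Among cell division lists, 1 of 30 mitosis genes was higher in both (Kif20a), 3 were lower in both and 4 were higher in LMPPs and lower in CD115-CDPs. In the same group, 1 of 12 genes of CDK inhibitors and G1 cyclins was higher in both (Cdkn1a) and 4 lower in both, with Cdkn2c at −1.52 and −3.34. Of 13 p53 target genes, 3 were higher in both, 1 was lower in both (Btg2) and 3, among them Phlda3, were lower in LMPPs and higher in CD115-CDPs. Of 27 myeloid and lymphoid transcription factor genes, 6 were lower in both, including Cebpd (−1.23 and −1.44) and Gfi1b, 1 was higher in both, and 4, among them Lmo2, were lower in LMPPs and higher in CD115-CDPs. Of 8 interferon regulatory factor genes, 3 were lower in both, 1 was higher in both and 2, among them Irf8, were higher in LMPPs and lower in CD115-CDPs. Lists of sterol synthesis and LXR or PPAR targets had 0 of 19 and 2 of 14 genes lower in both, and 0 and 1 higher in both. In the sterol list Fdps was higher in LMPPs and lower in CD115-CDPs. Insig1 of that list and 1 LXR or PPAR target had the reverse pattern. Of 9 integrin genes, 3 were higher in LMPPs and lower in CD115-CDPs, and 1 was lower in both. Histone deacetylase and corepressor genes numbered 5 lower in both of 18, Hdac3 among them. Toll-like receptor genes numbered 2 lower in both of 12. Growth factor and cytokine receptor genes numbered 3 higher and 2 lower in both of 21. C-type lectin and Fc receptor genes numbered 2 higher and 1 lower in both of 15. Higher in both were 1 of 10 Bcl2 family genes and 2 of 18 unfolded protein response genes. Each list after the integrins held 0 or 1 gene of opposite pattern.

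BM pDCs gave a separate look at the shared patterns, since their 4 libraries chose none of the genes. Of 12716 genes tested there by edgeR, 2753 rose (21.6%) and 2858 fell (22.5%) without HDAC3. Of the 640 genes higher in both progenitors, 629 were tested in BM pDCs, where 177 rose (28.1%), 74 fell (11.8%) and 378 had no call. Of the 1781 genes lower in both, 1757 were tested, of which 616 fell (35.1%), 289 rose (16.4%) and 852 had no call. Of the 9944 genes compared, 9775 were tested there, of which 22.9% rose and 22.7% fell. Genes lower in both thus fell in BM pDCs more often than these (35.1%). Genes higher in both rose at 28.1%, near the 22.9%, and less often than genes higher in LMPPs and lower in CD115-CDPs (41%). Genes of each shared pattern were called in the opposite direction less often than the genes compared, with no test of the shares. The counts in the shared direction ranged from 92 to 216 and from 320 to 698 when 1 BM pDC library was left out. They were 92 and 332 without control library 1, and 93 and 320 without control library 2. Their median log2 changes in BM pDCs were 0.05 and −0.15, against −0.01 for all tested genes.

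Genes with opposite patterns were read against the same shares of all tested genes in BM pDCs, 21.6% that rose and 22.5% that fell. Of the 157 genes higher in LMPPs and lower in CD115-CDPs, 156 were tested, of which 64 rose (41%), 22 fell (14.1%) and 70 had no call. Of the 405 genes with the reverse pattern, 380 were tested, of which 103 rose (27.1%, near the share of all genes), 60 fell (15.8%) and 217 had no call. Single genes differed. Tyrobp, Lgals1 and Cox6a2 fell in BM pDCs (log2 changes −0.77, −0.55 and −2.61), whereas Cfp and Itgb7 rose (1.09 and 1.11) and Irf8 had no call (−0.06). Serpinb6b, Ltb and Car2 rose in BM pDCs (2.92, 3.09 and 3.62), as they were higher in CD115-CDPs, and Lyz2 and Procr had no call (0.15 and −0.47). Among the shared genes, Ly6d, Cnn3 and Siglech fell in BM pDCs as well (−2.33, −2.13 and −1.05), and Ms4a3, Ctsg, Gimap7 and Cdkn1a rose (1.07, 1.13, 4.03 and 3.37). Plbd1 and Lgals3, lower in both progenitors, rose in BM pDCs (1.77 and 2.34).

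**Figure D5:**
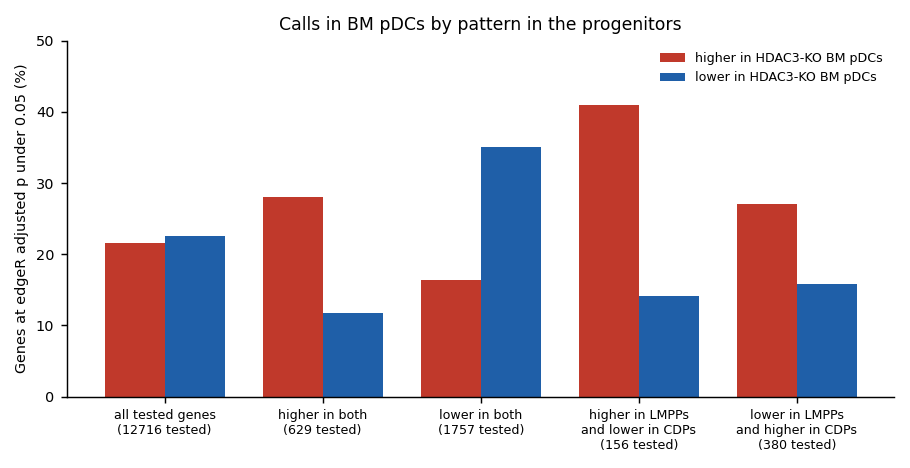
Share of genes called higher (red) or lower (blue) in HDAC3-deficient BM pDCs by edgeR, for all 12716 tested genes and for the tested genes of each progenitor pattern. Genes higher in both progenitors were called higher in 28.1% and lower in 11.8%, and genes lower in both in 16.4% and 35.1%.

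Promoter sequence is shown for the leading gene of each pattern that the promoter table holds, since members of a pattern moved together. The 250 bases before the start site in the RefSeq table are given 5′ to 3′ on the gene's strand in GRCm38.p6, for Trem1 (higher in both, chr17:48232489-48232738, plus strand), Gfi1b (lower in both, chr2:28621983-28622232, minus strand), Cfp (higher in LMPPs and lower in CD115-CDPs, chrX:20931556-20931805, minus strand) and Serpinb6b (lower in LMPPs and higher in CD115-CDPs, chr13:32965011-32965260, plus strand). The Serpinb6b window precedes the start site given for this gene in the promoter table, which lies inside the annotated gene (chromosome 13, 32956811 to 32979067). The last bases of the Trem1 window also lie inside its annotated gene (chromosome 17, 48232713 to 48246927). Capitals mark a match on either strand to 1 of 10 motifs. The motifs searched were the ETS cores written GAGGAA and, for a different subset of these factors, GGAAGT, which can overlap each other. The E boxes searched were CAGGTG for E proteins and, for factors of the Myc type, CACGTG. The bZIP motifs were TGACGTCA for CREB proteins, then TGANTCA for AP-1, then TTGCGCAA for C/EBP proteins. The general promoter motifs were the GC box GGGCGG, the box named CCAAT, and the TATA motif TATAAA.
Trem1: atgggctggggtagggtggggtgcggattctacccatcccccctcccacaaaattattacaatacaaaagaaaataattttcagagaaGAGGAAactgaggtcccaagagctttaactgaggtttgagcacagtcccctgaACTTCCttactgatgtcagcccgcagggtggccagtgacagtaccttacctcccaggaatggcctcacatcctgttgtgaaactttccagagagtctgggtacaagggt
Gfi1b: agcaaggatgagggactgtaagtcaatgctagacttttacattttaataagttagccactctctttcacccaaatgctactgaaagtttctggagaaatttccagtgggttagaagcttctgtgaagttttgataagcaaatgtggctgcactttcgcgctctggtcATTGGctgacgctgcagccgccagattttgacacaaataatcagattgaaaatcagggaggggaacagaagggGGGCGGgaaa
Cfp: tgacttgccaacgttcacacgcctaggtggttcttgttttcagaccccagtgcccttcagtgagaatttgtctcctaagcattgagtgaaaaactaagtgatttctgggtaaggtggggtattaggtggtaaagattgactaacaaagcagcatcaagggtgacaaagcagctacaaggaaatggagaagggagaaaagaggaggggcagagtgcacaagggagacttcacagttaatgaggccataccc
Serpinb6b: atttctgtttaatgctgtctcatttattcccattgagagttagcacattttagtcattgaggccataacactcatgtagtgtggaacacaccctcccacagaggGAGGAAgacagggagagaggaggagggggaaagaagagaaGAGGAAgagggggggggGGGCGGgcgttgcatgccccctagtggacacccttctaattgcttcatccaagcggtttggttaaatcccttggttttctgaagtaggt

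The window of Trem1 held 2 matches, that of Gfi1b 2, that of Cfp 0 and that of Serpinb6b 3. Promoters were held for 8150 of the 9944 genes. Among these, GGAAGT was in 25.5% of windows of all measured genes, in 30.6% of the 532 held for genes higher in both, and in 23% of the 1469 held for genes lower in both. For the opposite patterns it was in 27.6% of 116 and 23.9% of 322 windows. GAGGAA was in 22.4% of all windows and in 21.6% to 23% of those of the 4 patterns. GGGCGG was in 60% of all windows, 57% for genes higher in both, 61.7% for genes lower in both, 65.5% for genes higher in LMPPs and lower in CD115-CDPs and 51.2% for the reverse. The other motifs were in 13.9% (CAGGTG), 8.81% (CACGTG), 2.94% (TGACGTCA), 3.99% (TGANTCA), 38.2% (CCAAT), 6.01% (TATAAA) and 0.27% (TTGCGCAA) of all windows. These shares are descriptions, and a match is not a site of binding.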

How the data were processed

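RNA was sequenced from 12 libraries of sorted cells, 2 per genotype in LMPPs, CD115-CDPs and BM pDCs. The authors deposited FPKM for each library, and for BM pDCs also estimated counts per gene (18117748 to 18462220 per library). Bowtie2, RSEM and the mm10 build are listed in the submitters' processing notes, with versions and roles not given in the sources used here. The FPKM tables carry no read totals, and their low values showed no clear step of 1 read, so depth is unknown.

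LMPP and CD115-CDP tables were joined by gene identifier, leaving out 719 unnamed transcripts present in both. Genes with 1 FPKM or more in 2 or more libraries of both tables were kept, and log2(FPKM + 0.5) was used, which understates changes of low genes. The difference of responses was fitted with limma 3.58.1 (trend, R 4.3.3) over 8 libraries, and each progenitor alone. BM pDC counts were rounded and tested with edgeR 4.0.16 (quasi-likelihood), with DESeq2 1.42.0 as an alternative. All p values were adjusted by Benjamini-Hochberg over all genes tested. Both fits were tested on simulated data. For the difference of responses, each simulated gene had the same spread in all groups, and changes were placed in the HDAC3-deficient LMPPs. In the data the HDAC3-deficient CD115-CDP libraries differed most from each other. Simulated calls were 2 of 9744 unchanged genes and 0 of 50 genes changed by 1 on the log2 scale. The calls were 19 of 50 at 2, 23 of 50 at 3 and 39 of 50 at 4. The count of 0 genes called for the difference thus does not show that the responses were alike. For BM pDCs, 76 of 100 were called at 1 and 93 of 100 at 2. Other pseudocounts, filters, scalings, weights, a replicate block and leaving out each library were alternatives.

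Groups followed the labels. Named genes were the 10 with the largest smaller response in each shared pattern and 8 in each opposite one, the 5 smallest p of the difference in each direction, Ly6d, Ms4a3, Irf8, Lyz2 and Hdac3, and up to 3 members of a pattern per list. Of these, 2 genes are not reported here. The patterns, genes and lists were chosen with earlier results of these data known. Sex-linked genes are not reported here. Gene positions and promoters are from RefSeq on GRCm38.p6.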

Additional observations from a re-analysis of the deposited data

Results flagged for a closer look

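Of the named genes, 37 had both HDAC3-deficient libraries beyond both controls in opposite directions in the 2 progenitors. None of these differences was called by limma over all 9944 genes as reported, so the opposite directions are not shown to differ beyond the spread between libraries. Values are the LMPP response minus the CD115-CDP response on the log2(FPKM + 0.5) scale.

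Genes higher in LMPPs and lower in CD115-CDPs without HDAC3 were Tyrobp (2.57), Lgals1 (2.46), Cfp (2.68), Tmem119 (3.05), Atp4a (2.66), H2ac11 (1.94), Itgax (2.19), Itgb7 (1.82), Cox6a2 (2.13), Irf8 (2.19), Tfrc (1.74), Gins2 (0.91), Pcna (0.65), Fdps (0.94), Manf (0.44) and Cox7a2 (0.79). Among them, Tfrc and Cox7a2 did not keep the pattern under either other scaling, and Manf did not keep it under median-ratio scaling.

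Genes lower in LMPPs and higher in CD115-CDPs without HDAC3 were Serpinb6b (−3.58), Chil3 (−3.92), Serpine2 (−3.20), Ptgs1 (−3.31), Procr (−2.91), Pafah2 (−3.02), Fut10 (−3.24), Gclm (−2.57), Tsc22d3 (−3.01), Ltb (−2.96), Gstm1 (−2.26), Lyz2 (−3.16), Lyz1 (−3.21), Angpt1 (−2.19), Selp (−3.71), Car2 (−2.70), Mcpt8 (−2.42), Phlda3 (−2.03), Lmo2 (−2.23), Insig1 (−1.21) and Irak3 (−1.81). Insig1 did not keep the pattern under quantile normalization. Lyz1 and Lyz2 are close copies whose reads the counting may have shared.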

How the results depend on the processing

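Limits come first. With 2 libraries a group, calls in CD115-CDPs and for the difference depended on the spread between the 2 HDAC3-deficient CD115-CDP libraries. The 2 FPKM tables carry no depth, and their genotype differences depend on scale. Genes called for the difference of responses by limma numbered 0 as reported, with a pseudocount of 0.1 or 1, a filter of 5 FPKM or none, median-ratio scaling and eBayes without trend. There were 5 after quantile normalization and 7 with limma arrayWeights. Leaving out 1 library gave 0 to 3555, with 449 without HDAC3-deficient CD115-CDP library 2 and 3555 without library 1. Genes called within LMPPs numbered 2576 as reported, 501 with no filter and 1636 after quantile normalization, and 1167 to 3932 with 1 library left out. Genes called within CD115-CDPs numbered 0 as reported, 1 after quantile normalization and 15 with arrayWeights, and 0 to 5111 with 1 library left out, with 1395 without HDAC3-deficient library 2.

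Genes higher in both (640) numbered 1132 after median-ratio scaling and 1110 after quantile normalization, 32 with a response of at least 1 in both, and 724 to 1193 with 1 library left out. Genes lower in both (1781) numbered 1131, 978, 214 and 1949 to 2854 in the same order. Genes higher in LMPPs and lower in CD115-CDPs (157) numbered 265, 283, 4 and 232 to 678. Genes of the reverse pattern (405) numbered 264 with a filter of 5 FPKM, 22 with a response of at least 1 in both, and 471 to 1371 with 1 library left out. A rule on 7 libraries is looser by construction. The shared genes called in the same direction in BM pDCs (177 and 616) numbered 92 to 216 and 320 to 698 with 1 library left out, 156 and 504 by DESeq2, 132 and 790 with no scaling factors, and 147 and 563 with no filter.

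Groups share replicate numbers, but nothing says that a number marks a shared mouse, litter or day. Deviations of same-numbered libraries correlated at −0.14 in LMPPs, 0.24 in CD115-CDPs and −0.20 in BM pDCs. With the replicate number as a block, 11 genes were called for the difference (Hspa1a, Tsc22d3, Serpina3g, Ltb, Car2, Lyz2, S100a8, Lgals1, Hspa1b, Tyrobp and Ngp), against 0 without it. S100a8 and Ngp, genes of neutrophils, lie outside the naming rule and were named after their values were seen. The block gave 2548 calls in LMPPs, 393 in CD115-CDPs, and 157 and 577 in BM pDCs. With crossed pairs in LMPPs and BM pDCs, a choice made after seeing the data, there were 0 calls for the difference, 3510 in LMPPs, and 179 and 632 in BM pDCs.

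Of 2021 differences recomputed for the 114 named genes, 1813 kept direction and side of the threshold, 125 passed it where the reported value did not, and 83 in 34 genes changed sign. None of the 657 recomputed for the 37 genes with opposite patterns changed sign. Both HDAC3-deficient libraries of these genes lay beyond both controls, so leaving out 1 library or changing the pseudocount could not change a sign. Only the scalings could have, and nothing is read from this count. The sign changed with a pseudocount of 0.1 for Ly6d (−0.03), Plbd1 (−0.57), Lag3 (0.88), Blnk (−0.19) and Cd180 (−0.03), and with a pseudocount of 1 for Slc2a6 (−0.11), Sgk1 (−0.27), Clec10a (0.03) and Il10ra (−0.00). It changed after median-ratio scaling for Lag3 (0.02) and Clec10a (0.07), and after quantile normalization for Lag3 (0.03), Clec10a (0.21), Klf4 (0.03) and Sdhd (−0.19). With 1 library left out, 33 genes had differences on both sides of 0, with the ranges Trem1 −0.27 to 1.65, Clec2i −0.77 to 0.21, Apoc1 −1.88 to 0.24, Gimap7 −0.22 to 0.55, Slc2a6 −0.41 to 0.44, Gfi1b −1.35 to 2.35, Plbd1 −0.06 to 1.10, Tspan17 −0.31 to 1.70, Sgk1 −0.60 to 0.75, Hdac3 −0.25 to 2.88, Lag3 −1.87 to 1.60, Blnk −0.29 to 0.71, Clec10a −0.24 to 0.22, H2-Eb1 −0.26 to 0.50, Cd74 −0.81 to 0.21, Klf4 −1.34 to 0.72, Rag2 −0.80 to 0.10, Kif20a −0.31 to 0.38, Ccnb2 −0.13 to 0.40, Cdkn1b −0.25 to 0.84, Zbp1 −0.05 to 0.96, Irf7 −0.19 to 0.52, Irf9 −0.32 to 0.10, Cebpd −0.53 to 0.96, Il10ra −0.65 to 0.67, Csf2rb2 −0.32 to 1.20, Plin2 −0.47 to 0.25, Nr1h2 −0.11 to 0.97, Hspa5 −0.75 to 0.06, Sdhd −0.18 to 0.20, Rpl27 −0.12 to 0.77, Nolc1 −0.36 to 0.11 and Cd180 −0.33 to 0.41. None of these differences passed the test as reported, and the cause of each change was not tested.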
